A study of Bos indicus with 11 samples.

Results

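Of 11 uterine biopsies taken from beef cows 6 days after insemination, 3 carried the highest levels of smooth muscle actin transcript. The 3 biopsies, here called muscle-rich, came from cows P617, P1541 and NP638 and were chosen because the row of the deposited table that carries the symbols ACTG2 and ACTA2 reached at least 80000 normalized counts. The 8 biopsies below that value are called muscle-poor. Because the split was made from values in these same libraries, every difference between the 3 and the 8 biopsies is given as a description with no test, and the share of all genes that met the same rule is given for comparison.

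The wall of the uterus has an inner endometrium of luminal and glandular epithelium over a stroma of fibroblasts, vessels and immune cells, and an outer myometrium of smooth muscle. Smooth muscle cells contract when calcium and calmodulin activate myosin light chain kinase, which lets smooth muscle myosin pull on filaments of smooth muscle actin, while desmin and filamin tie these filaments to dense bodies and to the membrane. Vessel walls and pericytes carry part of the same set of genes. In bulk tissue, fewer cells of a type and less RNA per cell cannot be told apart.

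The cows were healthy multiparous Nelore (Bos indicus) females, inseminated at detected oestrus after a synchronization protocol and biopsied in the uterine horn opposite the corpus luteum. All animals shared this treatment, and the labels divide them by the pregnancy diagnosis made on day 30 as 6 pregnant animals (P) and 5 non-pregnant animals (NP). From every cow came 1 poly(A) RNA library, so animals are the replicates. A second record of the animals lists P617 as non-pregnant, so the comparison of P with NP was also run with that assignment.

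Depth did not separate the sides of the split. Reads on genes ran from 11172584 to 13508711 in the muscle-rich libraries and from 9290949 to 13569085 in the muscle-poor ones. Genes with at least 1 read numbered 16166 to 16776 and 16540 to 17058. P617 stood apart from the other libraries in several gene groups, as given below, so counts are also stated without it.

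The marker row (ENSBTAG00000014614) held ACTG2 and ACTA2, the enteric and vascular smooth muscle actins, as 1 count, and their shares cannot be told apart. It reached 215006 normalized counts in P617, 165234 in P1541 and 89878 in NP638. Just below the 80000 line stood P1753 with 72206 and P2396 with 71865, and the other muscle-poor cows ranged from 13869 to 43860. The line therefore passed through a narrow gap in a graded series, and both sides held P and NP cows. The row averaged 157000 ± 63000 (SD, n = 3) against 38200 ± 22900 (SD, n = 8), a log2 difference of 2.18.

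The other marker genes kept the muscle-rich cows above all 8 of the rest. MYH11, the smooth muscle myosin heavy chain, was at 98500, 67400 and 49600 in P617, P1541 and NP638, against a lowest, median and highest of 6770, 18000 and 35100 in the muscle-poor cows. DES, the muscle intermediate filament desmin, was at 71400, 73600 and 32600, against 4610, 12000 and 26400. For neither gene did the sides overlap, and a split at the 3 highest MYH11 values picks the same 3 cows. The 63 smooth muscle genes analysed took up 9.3%, 7.68% and 5.37% of all normalized counts in P617, P1541 and NP638, against 1.3% to 3.79% (median 2.19%) in the muscle-poor cows.

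**Figure D1:**
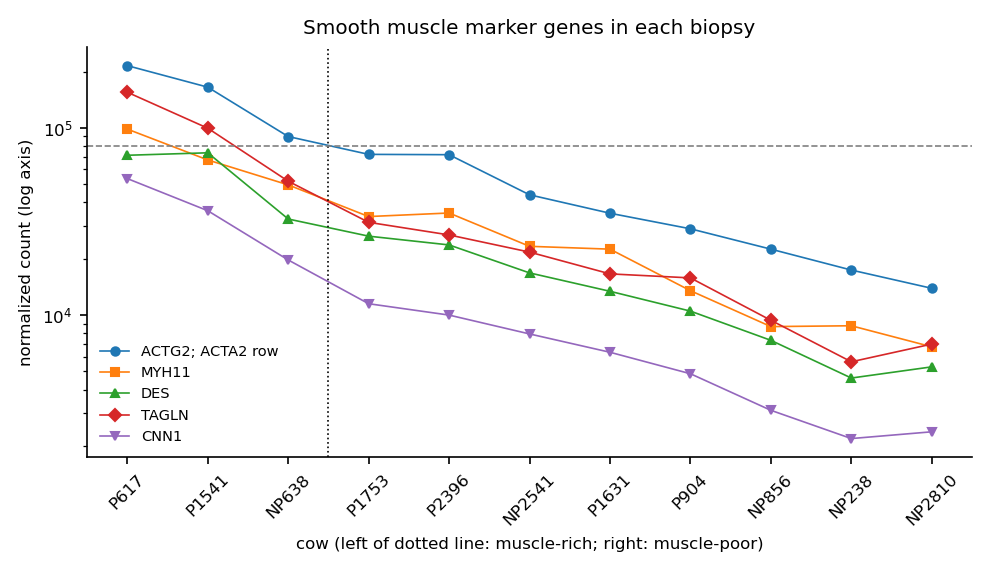
Normalized counts on a log axis of the ACTG2; ACTA2 row and of MYH11, DES, TAGLN and CNN1 in the 11 cows, 1 point per cow, ordered from the highest to the lowest marker row value, with the 80000 line dashed and the split dotted. The marker row descends from 215006 in P617 to 13869 in NP2810, the other 4 genes follow with a few neighbours exchanged (DES is highest in P1541), and lines only join the points of 1 gene.

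Across the transcriptome, a gene was counted when all 3 muscle-rich cows lay beyond all 8 muscle-poor cows and the difference of mean log2(normalized count + 1) was at least 1 in size, which is 2-fold. Of 15081 genes with a mean of at least 5 normalized counts, 568 were counted as higher (3.77%) and 304 as lower (2.02%) in the muscle-rich biopsies. Without the size limit, 1106 genes (7.33%) lay above and 591 (3.92%) below without overlap. Size-factor normalization centres the table, and the median gene differed by -0.02. Without the demand for separation the balance was the reverse, with 1010 genes higher and 2069 lower by at least 1. Of the counted genes, 34 of the 568 and 32 of the 304 had a mean under 5 on their low side and so passed the minimum only through the side where they were high.

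The 3 cows did not contribute equally. P617 held the highest value in 440 of the 568 higher genes and NP638 the lowest of the 3 in 439. Relative to the muscle-poor mean, the median of the higher genes was 1.96 in P617, 1.54 in P1541 and 1.10 in NP638 on the log2 scale. The same order held in the lower genes, with medians of -2.89, -1.24 and -0.83. Over all genes analysed, P617 had 1934 genes at least 1 log2 unit above and 3345 below the muscle-poor mean, while NP638 had 778 and 605.

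The lower side rested more on P617 than the higher side. Without P617, 498 genes were counted as higher, of which 446 were among the 568, and 198 as lower, of which 162 were among the 304. Without P1541 the counts were 678 and 473, of which 541 and 295 were among the 568 and the 304. Without NP638, which leaves P617 and P1541, they were 1093 and 1581, with 565 and 303 of the same genes. Of the 304 lower genes, 59 had at most 3 reads in P617.

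The smooth muscle list held 70 genes, of which 66 were matched by symbol and 63 reached the mean of 5 counts. Of these, 37 (58.7%) were counted as higher, against 3.77% of all genes, and 0 as lower, with a median difference of 1.47. The list score, the mean log2 value of its genes, was 11.34 in P617, 11.13 in P1541 and 10.88 in NP638, against 9.29 to 10.40 in the muscle-poor cows. The marker row is itself a member, so the list as a whole is not independent of the split. Without P617, 35 genes were counted as higher, against 3.3% of all genes, with a median of 1.20.

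Thin filament genes stood highest. Of 8 analysed, 7 were counted as higher, with a median difference of 2.23. The 7 include the marker row, whose separation was fixed by the split, and the median includes it too. For each role here the share of all genes counted as higher was 3.77%. TAGLN, transgelin, an actin-binding protein of smooth muscle, was at 155000 in P617, 99600 in P1541 and 51900 in NP638, against 5630 to 31300 (median 16200), a difference of 2.70. TPM2, beta-tropomyosin, was at 140000, 71800 and 46500, against 4800 to 25000 (median 12700), a difference of 2.77. In both genes P617 was highest and NP638 lowest of the 3. CNN1, calponin, picked after its values were seen, differed by 2.72 and was at 53600, 36100 and 19700 against 2190 to 11500 (median 5600). The exception was ACTC1, the cardiac actin, at 5.65, 125 and 106 against 92.5 to 646 (median 133), a difference of -1.81 with overlap.

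The rows of near-identical actins gave mixed values, and reads shared between these genes make each row uncertain. A row with the symbol ACTB (ENSBTAG00000015441) was at 81700, 66100 and 30600 against 3030 to 24100 (median 8230), a difference of 2.72. That difference equals the one of CNN1 at the precision given. Another row with the symbol ACTB (ENSBTAG00000026199) differed by 1.41, and the row shared by ACTB, ACTG1 and ACTBL2 (ENSBTAG00000006189), at 82000, 54100 and 37700 against 29300 to 35800 (median 31400), differed by 0.80. These 3 rows were picked after their values were seen, and the identity of the first was not settled.

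All 8 thick filament genes analysed were counted as higher, with differences of 1.21 to 2.70 and a median of 1.66. MYL9, the regulatory light chain that the kinase phosphorylates, was at 57500, 38400 and 24300 against 4850 to 15300 (median 8480), a difference of 2.16. MYLK, the kinase itself, was at 31900, 34300 and 22600 against 3780 to 16600 (median 8460), a difference of 1.85. SMTN, smoothelin, a protein of contractile smooth muscle, differed by 2.70. MYLK and SMTN were picked after their values were seen.

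Genes of intermediate filaments, dense bodies and membrane anchors were counted as higher in 12 of 17 cases, with a median of 1.62 and a range of 0.22 to 2.41. FLNA, filamin A, which crosslinks actin, was at 158000, 111000 and 80300 against 13900 to 50000 (median 27200), a difference of 2.07. Like DES, at 2.30, it lay more than 4-fold higher on the log2 scale used.

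The groups for excitation and signalling were less uniform. Among calcium and ion channel genes, 5 of 12 were counted as higher, with a median of 0.85. GJA1, connexin 43, the gap junction protein that couples myometrial cells, was at 6760, 4210 and 3760 against 2270 to 5240 (median 4110), which overlapped. ATP2A2, the calcium pump of the sarcoplasmic reticulum, also overlapped, with a difference of 0.01. Both genes are used well beyond muscle. KCNMB1, the smooth muscle subunit of the large-conductance potassium channel, differed by 2.44, at 3210, 1740 and 1760 against 145 to 831 (median 473), and JPH2, a junctional membrane protein, by 2.26. The last pair was picked after their values were seen. CASQ2, a calcium-binding protein of the reticulum, went the other way, with 0, 0 and 6.09 against 3.02 to 35.5 (median 8.93), at very low counts.

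Of 10 genes for receptors and cyclic nucleotide signalling, 4 were counted as higher, with a median of 1.60. MRVI1, a target of cGMP-dependent kinase that dampens calcium release, was at 7740, 6200 and 3370 against 672 to 2680 (median 1130), a difference of 2.28. PTGFR, the receptor through which prostaglandin F2 alpha contracts the uterus, was at 1070, 436 and 180 against 9.17 to 126 (median 44.2), a difference of 3.45. PTGFR was the smooth muscle gene with the largest difference. The oxytocin receptor gene OXTR did not separate the sides, at 346, 82.3 and 193 against 17.3 to 130 (median 71.9), and neither did the muscarinic receptor gene CHRM3, at 295, 63.9 and 239 against 8.09 to 65.1 (median 30.8). In both, P1541 lay inside the muscle-poor range. OXTR and CHRM3 were picked after their values were seen.

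The subunits of soluble guanylate cyclase, the nitric oxide receptor, were among the 6 of 63 smooth muscle genes with a negative difference. GUCY1B3 was at 757, 1280 and 2540 against 1410 to 3370 (median 2790), a difference of -0.91. GUCY1A3 was at 279, 394 and 959 against 444 to 1360 (median 1100), a difference of -1.04. In both genes the P cows P617 and P1541 lay below every muscle-poor cow and NP638 lay inside their range.

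Of 8 transcription factor genes only SRF, serum response factor, which drives many contractile genes, was counted as higher. It was at 2230, 1600 and 1410 against 484 to 1240 (median 686), a difference of 1.25. Its cofactor gene MYOCD, myocardin, was at 110, 437 and 309 against 51 to 660 (median 155) and overlapped. GATA6, at 193 in P617 but 21.3 and 15.2 in P1541 and NP638 against 6.13 to 27.5 (median 11.8), was high in 1 cow. MKL2 and FOXF1 had differences of -0.77 and -1.68, with NP638 inside the muscle-poor range in both. SRF, MYOCD and GATA6 were picked after their values were seen.

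**Figure D2:**
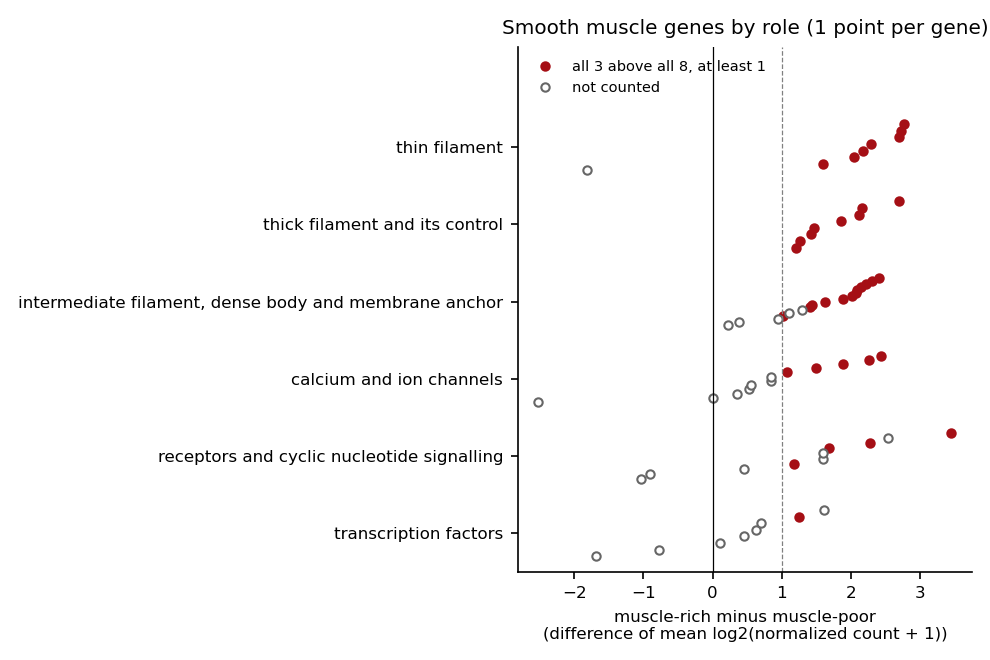
Difference of mean log2(normalized count + 1) between the 3 muscle-rich and 8 muscle-poor biopsies for the 63 smooth muscle genes analysed, by role, 1 point per gene, with filled points for genes counted as higher and a dashed line at 1. All 8 thick filament genes and 7 of 8 thin filament genes are filled, against 1 of 8 transcription factors. The marker row that made the split is among the filled thin filament genes.

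Epithelial genes were lower, and by far the most in P617. The epithelium list score was 6.62 in P617, 8.50 in P1541 and 8.78 in NP638, against 9.10 to 10.05 in the muscle-poor cows, so all 3 lay below all 8. Of 28 genes analysed, 13 (46.4%) were counted as lower, against 2.02% of all genes, and 0 as higher, with a median of -1.55. Without P617 the count fell to 2, against 1.31% of all genes, and the median was -0.69.

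EPCAM, the epithelial adhesion molecule, was at 269 in P617, 2110 in P1541 and 2390 in NP638, against 2840 to 4720 (median 3480), a difference of -1.67. CLDN7, a tight junction claudin, was at 224, 1870 and 3110 against 3480 to 5470 (median 4270), a difference of -1.95. P617 was far below the muscle-poor range of both genes, while P1541 and NP638 lay nearer to the muscle-poor range. CLDN4, picked after its values were seen, was graded in the same order at 147, 196 and 273 against 351 to 812 (median 582). Not every epithelial gene followed: DSP, desmoplakin, was at 1650, 2020 and 2680 against 1360 to 3710 (median 2440), and KRT7, a keratin, was at 433, 254 and 115 against 131 to 839 (median 193). KRT7 was the only gene of the list with a positive difference, 0.10.

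P617 was also lowest in the gland and cilia list scores. MSX1, a transcription factor of the uterine epithelium, was at 202 in P617, 7400 in P1541 and 8130 in NP638, against 8490 to 14100 (median 10900). SERPINA14, the uterine serpin or uterine milk protein secreted by the glands, was at 0, 190 and 167 against 197 to 663 (median 301). These were the 2 of 10 gland and histotroph genes counted as lower (20.0%, against 2.02% of all genes). Without P617 the count was 0, against 1.31% of all genes. LTF, lactoferrin, differed from MSX1 and SERPINA14, at 2880, 4930 and 580 against 1300 to 10700 (median 3150). Of 9 genes of motile cilia, 0 were counted, though all 9 had a negative difference with a median of -2.35. FOXJ1, the master factor of ciliated cells, was at 52, 166 and 333 against 305 to 2040 (median 721), and DNAH5, an axonemal dynein, was at 14.7, 62.9 and 279 against 172 to 1900 (median 534). NP638 overlapped the muscle-poor cows in both.

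**Figure D3:**
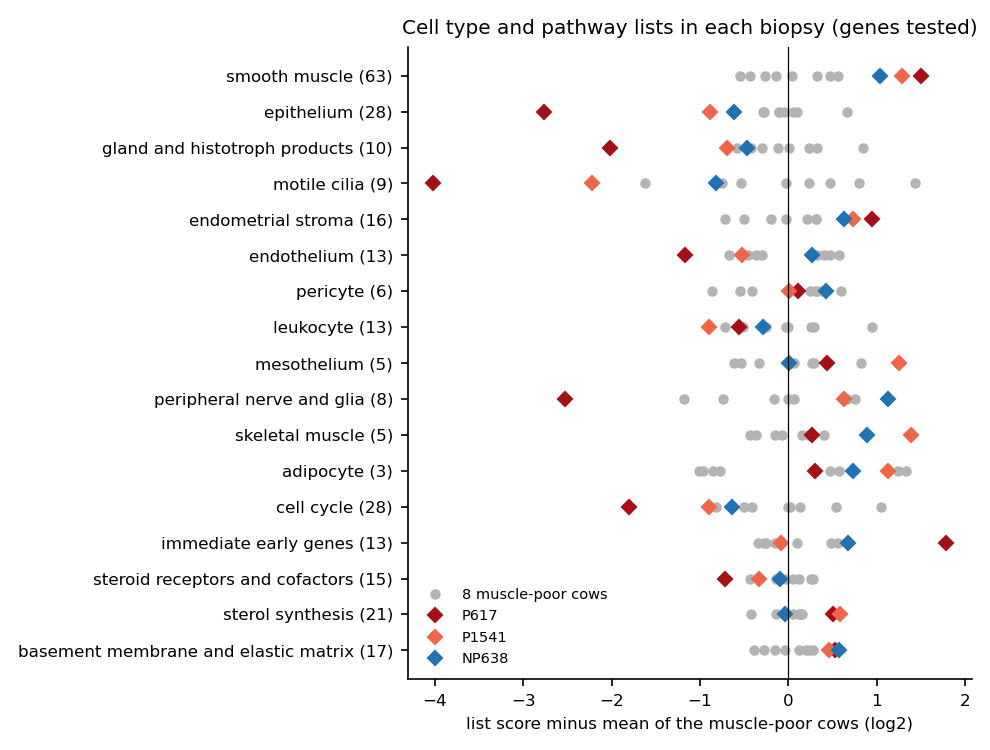
Score of each list (mean log2(normalized count + 1) of its analysed genes, number in brackets) in each cow, minus the mean of the 8 muscle-poor cows, with muscle-poor cows in grey and the 3 muscle-rich cows as coloured diamonds. The smooth muscle diamonds lie at 1.49, 1.28 and 1.04 and the epithelium diamonds at -2.77, -0.89 and -0.60. P617 is the lowest cow in the epithelium, gland, cilia, endothelium, nerve, cell cycle and steroid receptor lists.

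Stromal genes were not lower in the muscle-rich biopsies. The stroma list score was 13.12, 12.90 and 12.80 in P617, P1541 and NP638, against 11.45 to 12.79, so the sides did not overlap by a narrow margin. Of 16 genes, 4 were counted as higher (25.0%, against 3.77% of all genes), with a median of 0.67, and 0 as lower. COL1A1, a chain of fibrillar collagen, was at 63300, 93400 and 58000 against 20600 to 45900 (median 33300), a difference of 1.15. COL3A1 and COL1A2, the other fibrillar collagen genes named, overlapped, with differences of 0.45 and 0.54. The other counted genes were COL6A3, PDGFRA and IGF1, with differences of 1.69, 1.03 and 1.31, picked after their values were seen. Within the NP cows the median of the list was 0.07, with single genes of NP638 from -0.2 (COL3A1 and FBLN1) to 1.17 (COL6A3) against its own group.

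Genes of basement membrane and elastic matrix were counted as higher in 4 of 17 cases (23.5%, against 3.77% of all genes), with a median of 0.59. EMILIN1, a glycoprotein of elastic fibres, was at 23100, 13500 and 12200 against 3230 to 6600 (median 4830), a difference of 1.71. COL4A2, a basement membrane collagen chain, was at 10200, 9530 and 10400 against 3320 to 7570 (median 5170), a difference of 1.02, while its partner COL4A1 overlapped at 0.59. LTBP1 and MFAP4 were the other counted genes, of which LTBP1, a binder of latent transforming growth factor beta, was at 9560, 7900 and 5000 against 1010 to 3080 (median 1950). The last pair was picked after their values were seen. The matrix list score kept all 3 muscle-rich cows above the rest, at 11.48 to 11.59 against 10.63 to 11.30.

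Vessel and immune genes showed little separation. Of 13 endothelial genes, 0 were counted, with a median of -0.47. KDR, the main receptor for vascular endothelial growth factor, was at 1260, 2180 and 2970 against 1820 to 4690 (median 3070), and VWF, von Willebrand factor, was at 629, 1060 and 3360 against 1690 to 3730 (median 2400). NP638 sat inside the muscle-poor range for both genes, P617 was below it in both, and P1541 in VWF. Of 6 pericyte genes, 0 were counted, with a median of 0.25. The difference was positive in 4 and negative in 2. MCAM, at 2150, 2270 and 2340 against 1120 to 2000 (median 1410), lay above without overlap with a difference of 0.61, and RGS5 was at 778, 724 and 2240 against 863 to 2910 (median 1830). RGS5 had a difference of -0.60, the most negative of the 6. Of 13 leukocyte genes 1 was counted, as lower (7.69%, against 2.02% of all genes). It was CD2, a T cell surface protein picked after its values were seen, at 19.2, 21.3 and 21.3 against 28.2 to 97.9 (median 51.1). PTPRC, the pan-leukocyte marker CD45, was at 199, 149 and 205 against 149 to 315 (median 253).

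Lists for tissues at the edge of a biopsy held few genes. Of 5 mesothelial genes, 2 were counted as higher, against 3.77% of all genes. WT1, a transcription factor of mesothelium and also of uterine stroma and muscle, was at 1140, 831 and 674 against 223 to 609 (median 425). LRRN4, picked after its values were seen, was at 12.4, 101 and 4.06 against 0 to 1.75 (median 0), and it passed the mean of 5 only through the muscle-rich cows, so its difference carries no weight. The most abundant mesothelial list members, UPK1B and MSLN, overlapped, with differences of -1.36 and 0.55. Among 8 nerve genes 1 was counted, as higher (12.5%, against 3.77% of all genes). It was SNAP25, a protein of synaptic vesicle release, at 356, 452 and 290 against 70.3 to 230 (median 145). S100B, a glial calcium-binding protein, was at 469 in P617 against 4100 to 8160 (median 4850). Without P617 the median of the nerve list was 0.99, against 0.09 with it.

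Skeletal muscle genes stayed at low counts. Of 5 analysed, 1 was counted as higher (20.0%, against 3.77% of all genes). This was MB, myoglobin, at 191, 117 and 61.9 against 17.2 to 47.3 (median 28.8). ACTA1, the skeletal actin, was at 37.3, 290 and 58.8 against 7.06 to 53.4 (median 19), and TNNT1, a troponin of slow fibres, was at 5.65, 3.87 and 15.2 against 12.6 to 25.5 (median 19.3). The 3 adipocyte genes analysed overlapped. No haemoglobin or other blood gene of the list reached the mean of 5 counts.

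Proliferation genes were lower on average. Of 28 cell cycle genes, 4 were counted as lower (14.3%, against 2.02% of all genes) and 0 as higher, with a median of -1.32. Without P617, 4 were counted (against 1.31% of all genes) and the median was -0.82. The 4 were CENPF, CDK1, AURKB and KIF20A, which act in mitosis, and of these CDK1, AURKB and KIF20A were picked after their values were seen. CDK1, the kinase that starts mitosis, was at 9.04, 25.2 and 56.8 against 57.4 to 196 (median 85.1). CCNB1, its cyclin, was at 32.8 in P617 but at 2080 and 2130 in P1541 and NP638, inside the muscle-poor range of 1920 to 4390. The replication genes MCM7 and PCNA overlapped, with differences of -0.02 and 0.30.

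Immediate early genes, which respond within minutes to handling and stress, had their highest list score in P617. Of 13 genes, 0 were counted, with a median of 0.62. DUSP1 overlapped, at 1370, 859 and 1440 against 628 to 2040. EGR1 was at 6090 in P617, 374 in P1541 and 951 in NP638, against 127 to 540 (median 199). The list score was 8.94 in P617, 7.07 in P1541 and 7.83 in NP638, against 6.81 to 7.71, so P1541 did not share it. This value moved with the smooth muscle, epithelial and other lists in P617, and its part in those results was not tested.

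Steroid receptor and cofactor genes had a median of -0.24. PGRMC1, a membrane component linked to progesterone, was at 3230, 7040 and 5740 against 5390 to 7670 (median 6270), and FKBP5, a glucocorticoid and progesterone responsive chaperone, was at 6670, 6330 and 4680 against 3300 to 5880 (median 4890). The nuclear receptor gene ESR1 overlapped, with a difference of -0.63. PGR, the progesterone receptor, overlapped too, at 265, 225 and 233 against 262 to 483 (median 280). GREB1, an oestrogen target, was the 1 of 15 counted as lower (6.67%, against 2.02% of all genes), at 79.1, 192 and 216 against 246 to 804 (median 414). ESR2, oestrogen receptor beta, was at 1.13, 63.9 and 179 against 133 to 410 (median 279). ESR1, PGR, GREB1 and ESR2 were picked after their values were seen.

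Among 21 genes of sterol synthesis, 1 was counted as higher (4.76%), a share near the 3.77% of all genes, with a median of 0.30. That gene was MVK, mevalonate kinase, at 1970, 1240 and 657 against 278 to 470 (median 411), picked after its values were seen. MSMO1 and FDFT1, enzymes of the later steps, overlapped, with differences of 0.04 and -0.34. SQLE, squalene epoxidase and also picked after its values were seen, was at 3340 and 2740 in P617 and P1541 but at 892 in NP638, inside the muscle-poor range of 650 to 1070.

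The 10 genes with the largest positive difference were, PTGFR apart, outside the smooth muscle list. Of these, 4 (MRAP2, ACCN1, CBLN4 and the row of CHI3L1) had a muscle-poor mean under 50 and so entered only through the muscle-rich cows. Of the 10 with the largest negative difference, 7 had a muscle-rich mean under 50. Over genes with a symbol and a mean of at least 50 counts that were beyond the rest within P cows and in NP638 too, MRAP2, an accessory protein of melanocortin receptors, had the largest positive difference, 4.72. It was at 3230, 489 and 114 in P617, P1541 and NP638, against 5.38 to 48.9 (median 20.5). CCL11, the eosinophil chemokine eotaxin, was at 1640, 739 and 346 against 5.06 to 160 (median 41.9), a difference of 4.54. NMB, neuromedin B, a peptide that contracts smooth muscle, was the most abundant of the 10, at 28100, 11800 and 11800 against 285 to 3810 (median 1610), a difference of 3.41.

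GFRA1, a co-receptor for glial cell line-derived neurotrophic factor, was at 964, 309 and 438 against 2.02 to 211 (median 27.4). PTPRR, a receptor tyrosine phosphatase, was at 2620, 1240 and 554 against 39.4 to 195 (median 107). CDH3, P-cadherin, an adhesion protein mostly known from epithelia, was at 3210, 1860 and 625 against 55 to 317 (median 168), the opposite direction to EPCAM and CLDN7. ACCN1, an acid-sensing ion channel, CBLN4, a secreted synaptic protein, and the row shared by CHI3L1 and LOC788983 differed by 4.54, 3.59 and 4.30. PTGFR completed the 10.

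On the lower side SPHKAP, an anchor of protein kinase A, had the largest difference, -4.71, at 1.13, 0 and 7.10 against 29 to 233 (median 65.7). DAPL1, a gene of epithelial differentiation, was at 0, 6.78 and 16.2 against 42.8 to 259 (median 124), a difference of -4.35. In both genes P1541 and NP638 were far below the lowest muscle-poor cow. This was not so for NPL, N-acetylneuraminate lyase, at 0, 102 and 127 against 128 to 445 (median 261), where NP638 nearly touched the muscle-poor range. RGS14, a regulator of G protein signalling, was at 22.6, 400 and 475 against 675 to 1850 (median 1090), a difference of -2.76. CENPF, a kinetochore protein, was at 6.78, 32.9 and 72 against 85.3 to 522 (median 222). The rest of the 10 were SERPINA14, the rows of ASIP and HAVCR1 that each carry a second symbol, LOC100848380 and LOC100848668, with differences of -3.42 to -2.80.

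**Figure D4:**
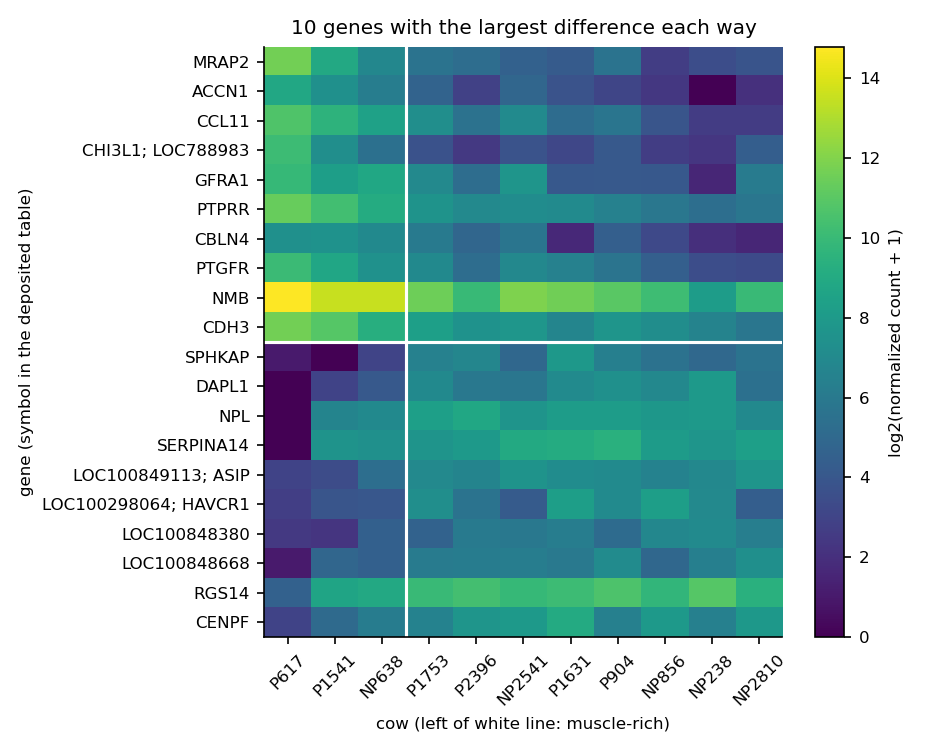
Log2(normalized count + 1) in each of the 11 cows, by colour, of the 10 genes with the largest positive and the 10 with the largest negative difference, with cows ordered by the marker row and the muscle-rich cows left of the white line. P617 is at 0 counts in DAPL1, NPL and SERPINA14, and NMB is the brightest gene, at 28100 in P617.

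The same contrast was made inside each outcome group. Within the P cows, P617 and P1541 were both beyond the 4 other P cows with a difference of at least 1 in 1304 higher (8.65%) and 2095 lower genes (13.9%). Within the NP cows, NP638 was beyond the 4 others by at least 1 in 735 (4.87%) and 535 genes (3.55%). Of the 1304 genes higher within P cows, NP638 lay above all 4 other NP cows in 807 (61.9%), against 19.7% of all genes. Of the 2095 lower genes, NP638 lay below in 656 (31.3%), against 19.6% of all genes. The animals of these contrasts are separate, but P617 and P1541 were picked with NP638 by the same marker row.

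The counting rule already requires all 3 cows to lie beyond the rest, so the values of the counted genes within each outcome group only describe their sizes. Among the 568 higher genes the difference was at least 1 within P cows in 551 and in NP638 against its group in 333, with 318 in both, and the medians were 1.72 and 1.13. Among the 304 lower genes these were 302, 99 and 97, with medians of -2.17 and -0.74. The smooth muscle list had nearly equal medians, 1.38 within P cows and 1.23 in NP638. The epithelium list had -2.18 and -0.43, motile cilia -3.12 and -0.66, and stroma 1.15 and 0.07.

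**Figure D5:**
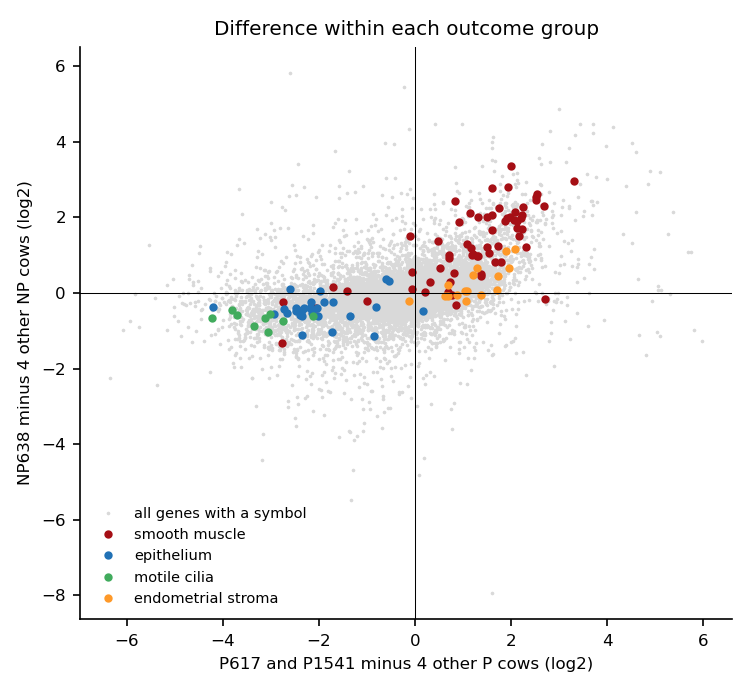
For each gene with a symbol, the log2 difference of P617 and P1541 from the 4 other P cows (horizontal axis) against that of NP638 from the 4 other NP cows (vertical axis), with 4 lists in colour. Smooth muscle genes lie up and to the right with medians of 1.38 and 1.23, whereas epithelial and cilia genes spread to the left, with medians of -2.18 and -3.12, and stay near the horizontal line.

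Among the 8 muscle-poor cows the marker row still varied. There the median Spearman correlation with the marker row was 0.43 for the 568 higher genes, 0.12 for the 304 lower genes and 0.02 for all genes analysed. Of the higher genes 71.8% had a positive value, against 51.3% of all genes. These are descriptions over 8 libraries that share depth and normalization. The lower genes did not follow the marker row downwards in these cows.

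The labelled comparison of P with NP cows was the only one tested. By limma on all genes 0 of 15081 were called at an adjusted p of 0.1 (0.0%), with 1182 (7.84%) at an unadjusted p under 0.05. The edgeR quasi-likelihood test on recovered reads gave 0 and 1151, and DESeq2 called 201. With P617 as NP limma called 0, with 977 at an unadjusted p under 0.05. The smooth muscle score averaged 10.46 ± 0.66 over the P cows (SD, n = 6) and 9.87 ± 0.66 over the NP cows (SD, n = 5). NP minus P was -0.59, with p = 0.169 in the two-sided exact permutation test (adjusted p = 0.41 over 17 lists). With P617 counted as NP the difference was -0.17, p = 0.693 in the same exact test.

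Of the 63 smooth muscle genes limma called 0, with 9 (14.3%, against 7.84% of all genes) at an unadjusted p under 0.05 and a smallest adjusted p of 0.446. MYH11 differed by -1.35 and DES by -1.48 between NP and P, with limma unadjusted p of 0.0495 and 0.0413 and adjusted p of 0.637 and 0.607. Of the 568 higher genes 26 (4.58%) and of the 304 lower genes 3 (0.987%) had an unadjusted limma p under 0.05, against 7.84% of all genes. The counting rule places extreme cows in both outcome groups, so these shares are not independent of the rule. Its effect on them was not tested. The epithelium score differed by 0.23 (exact permutation p = 0.87, adjusted p = 0.978).

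The lists with the smallest p were others. The endothelium score was higher in NP by 0.76 and the pericyte score by 0.62, while the mesothelium score was lower by 0.72 and sterol synthesis by 0.37. Their exact permutation p were 0.0173, 0.013, 0.0216 and 0.00866, all with an adjusted p of 0.092. That value is under the 0.1 used for adjusted p in the gene tests. However, the lists were chosen with earlier results of these data known. The paper reported MSLN of the mesothelium list and DHCR7 and MVD of the sterol list as higher in P in these cows. The p of the lists are therefore not independent of earlier results and are no separate support. The mesothelium score includes LRRN4, which passed the mean of 5 only through the muscle-rich cows. Its NP minus P of -1.51 was the largest in size of the 5 genes, and the score without it was not tested. No list stayed under 0.1 with P617 as NP. With P617 as NP the differences were 0.38 for endothelium, 0.64 for pericyte, -0.61 for mesothelium and -0.22 for sterol synthesis, with exact permutation p of 0.268, 0.0173, 0.0736 and 0.212 and adjusted p of 0.415, 0.184, 0.25 and 0.415. For endothelium and sterol synthesis the size thus moved by more than 1.5 times with the assignment of 1 cow. The smallest p that 6 against 5 cows allow is 0.00433. With the smooth muscle score as a covariate limma again called 0 genes, with 918 at an unadjusted p under 0.05.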

How the data were processed

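Endometrial biopsies of 11 cows were sequenced as poly(A) RNA. By the methods and the labels, reads were base-called with CASAVA 1.8.2, cleaned with Seqyclean, aligned to the masked UMD3.1 genome with Bowtie2 2.1.0, counted per gene with HTSeq 0.5.4p2 and normalized with DESeq2 1.12.1; the strand setting is not given in the sources used here. What the authors deposited is a table with 24616 genes whose values are a signal, the count of each gene divided by the library's size factor, and 0 columns of per-sample values were left unused. Whole reads were recovered from the steps of the values (tolerance 0.01). Samples were grouped by the labels.

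The muscle-rich biopsies, the gene lists and the rules were chosen with earlier results of these data known. Values were used as log2(normalized count + 1), over 15081 genes with a mean of at least 5. Named genes were the 2 to 4 members with the highest mean in each list, or in each role of smooth muscle, members that went against their list, the marker genes, and the 10 largest differences each way at a mean of at least 50 that also held within both outcome groups. A gene that this rule names is not reported here. P was compared with NP by limma 3.58.1 (trend, Benjamini-Hochberg), with edgeR 4.0.16 and DESeq2 1.42.0 in R 4.3.3 on recovered reads as alternatives, and by two-sided exact permutation tests of 17 list scores. The fits were tested on simulated data. Alternatives were pseudocount, filter, TMM or upper-quartile factors, a split by MYH11, each cow left out, and P617 as NP. Poly(A) selection and shared reads between paralogs could affect single genes, and 11 libraries limit the precision.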

Additional observations from a re-analysis of the deposited data

Results flagged for a closer look

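In 98 results examined over 294 groups of 4 to 10 cows, 18 groups held 1 cow far from the rest by Dixon's test, and chance flags about 1 in 20 groups. All values here are log2(normalized count + 1). Of the 18, 10 were cow P617 among the P cows. P617 was low in CLDN7 (7.81), EPCAM (8.08), MSX1 (7.67), S100B (8.88), CCNB1 (5.08) and RGS14 (4.56), was at 0 in NPL and SERPINA14, and was high in EGR1 (12.57) and in the immediate early list score (8.94).

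Among the other P cows, P904 was apart in EMCN (10.89) and RGS5 (11.51), P1631 in MCM7 (10.98) and P1753 in FKBP5 (11.82). Among the NP cows, NP238 was apart in VWF (10.85) and NP638 in SPHKAP (3.02). Among the muscle-poor cows, P1631 was apart in the epithelium list score (10.05) and NP2810 in GUCY1B3 (10.46). For 10 of the 18, the cow was thus the same muscle-rich animal, and no explanation was tested.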

How the results depend on the processing

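The 568 higher and 304 lower genes ranged over 455 to 599 and 225 to 319 under the pseudocount, filter, TMM and upper-quartile factors. The split by MYH11 picks the same muscle-rich cows, so it could not change these counts. With 1 cow left out they ranged over 498 to 1093 and 198 to 1581. The lower count moved by over 1.5 times without P617 (198), P1541 (473), P1753 (481), NP2810 (521) and NP638 (1581), and the higher count without NP638 (1093). Within P cows the counts ranged over 1091 to 2003 and 1804 to 3193, both highest without P1541. Removing a cow also removes a condition of the counting rule. The limma comparison of P with NP called 171 genes without P904 and 0 without any other cow, and DESeq2 called 201; the cause was not tested. List scores of NP minus P that changed sign were these. For gland products the value was 0.04 with the list median and -0.38 to 0.19 with 1 cow left out. For steroid receptors it was -0.03 with the median, -0.01 with a pseudocount of 5 and -0.12 to 0.09 with 1 cow left out. With 1 cow left out it was -0.37 to 0.18 for adipocyte genes, -0.23 to 0.46 for epithelium and -0.01 to 0.56 for cell cycle, the last pair negative without P617. With P617 as NP, an alternative added after seeing the data, it was -0.64 for epithelium, -0.55 for motile cilia, -0.28 for cell cycle and -0.22 for steroid receptors. No paired analysis was possible because the cow numbers are not shared between the groups. Depth limits the genes near 0 in P617, where 59 of the lower genes had at most 3 reads.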
